A study of Mus musculus with 29 samples.

Results

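The NF-kappaB subunits and inhibitors described here are 10 genes, Nfkb1, Nfkb2, Rel, Rela, Relb, Nfkbia, Nfkbib, Nfkbie, Nfkbiz and Tnfaip3, picked by name from the 24732 entries of the mm9 expression tables and the 25588 entries of the mm10 tables, with 1 entry for each in both. Their RNA levels were measured by poly(A) RNA-seq in 8 libraries of cells sorted ex vivo from the bone marrow of C57BL/6 mice, in a study of the PAX5-JAK2 fusion in B cell leukemia. These were 3 libraries of wild-type pro-B cells, 2 libraries of Pax5-/- cells, which lack the transcription factor that commits progenitors to the B cell lineage, and 3 libraries of pro-B cells labelled Pax5+/+ Meox2-cre, from 3-week-old mice that express Cre recombinase ubiquitously from the Meox2 locus and that the study's own sample list names Pax5+/-. The ages of the wild-type and Pax5-/- mice are not given in the sources used here, and the Meox2-cre samples are labelled as pooled. The gate of the pro-B cells included B220+ Kit+ CD2- IgM- IgD-, whereas that of the Pax5-deficient progenitors included B220+ Kit+ Ly6D+, so that the genotype and the gate cannot be told apart.

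NF-kappaB is a family of dimeric transcription factors that carry signals from antigen, cytokine and pattern recognition receptors to the nucleus. Rela, Rel and Relb hold a transactivation domain, whereas Nfkb1 and Nfkb2 encode the precursors of the DNA-binding subunits p50 and p52. The classical inhibitors Nfkbia (IkappaBalpha), Nfkbib (IkappaBbeta) and Nfkbie (IkappaBepsilon) retain the dimers in the cytoplasm until the IKK kinase complex marks them for degradation, and in the non-canonical arm the kinase NIK triggers the processing of p100 to p52. Nfkbiz is a nuclear atypical inhibitor that modulates transcription, and Tnfaip3 (A20) is a ubiquitin-editing enzyme that ends the signal upstream of IKK. Nfkbia and Tnfaip3 are themselves well known target genes of NF-kappaB and form feedback loops. In early B cells the pathway is known for its roles in survival and in the response to pre-B cell receptor and TNF family signals.

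In the mm9 annotation of GENCODE the 10 genes lie on 8 chromosomes, with Nfkb2 (chr19:46379227-46386580, plus strand) and Rela (chr19:5637483-5648130, plus) on one chromosome and Relb (chr7:20191566-20214787, minus) and Nfkbib (chr7:29543270-29552531, minus) on another. Nfkbia is at chr12:56590398-56593634 (minus), Nfkbie at chr17:45692665-45700118 (plus) and Tnfaip3 at chr10:18720716-18735463 (minus). Nfkb1 (chr3:135247619-135354511, minus), Rel (chr11:23641514-23670970, minus) and Nfkbiz (chr16:55811488-55839012, minus) complete the set. The 3' end of Nfkb2 overlaps Psd on the opposite strand by 4 bases and Nfkbib overlaps Sirt2 on the opposite strand by 778 bases. No source used here states that strand was used in counting, so reads in these overlaps cannot be assigned to one gene.

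Start-site windows, from 250 bases before to 50 bases after each RefSeq start (GRCm38.p6), were read for 7 members, and Nfkb1, Relb and Nfkbiz were not matched. The windows were searched on either strand for GGNNTTTCC, a 9-base form of the kappaB site, and no other motif was searched. It occurred in the windows of 4 of the 7 members (57.1%), Nfkb2, Rel, Nfkbia and Tnfaip3, compared with 6.62% of the 27025 genes in the table and 7.36% of the 8846 of them that were also tested for expression. Rela, Nfkbib and Nfkbie had no match in their windows, which says only that these letters are not there. The 250 bases upstream of the start are shown 5' to 3' on the strand of the gene for Nfkbia (chr12:55492648-55492897), Tnfaip3 (chr10:19015411-19015660) and Nfkbie (chr17:45555450-45555699), because these are the members that passed the expression test below. Capitals mark the matches, which stand at -178 to -170 and -29 to -21 in Nfkbia and at -24 to -16 and -12 to -4 in Tnfaip3, counted from the base before the start as -1.
Nfkbia: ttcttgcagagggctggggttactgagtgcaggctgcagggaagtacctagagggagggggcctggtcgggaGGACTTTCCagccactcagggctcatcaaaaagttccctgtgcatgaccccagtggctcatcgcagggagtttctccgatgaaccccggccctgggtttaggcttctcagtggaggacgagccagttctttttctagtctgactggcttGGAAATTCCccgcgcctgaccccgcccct
Tnfaip3: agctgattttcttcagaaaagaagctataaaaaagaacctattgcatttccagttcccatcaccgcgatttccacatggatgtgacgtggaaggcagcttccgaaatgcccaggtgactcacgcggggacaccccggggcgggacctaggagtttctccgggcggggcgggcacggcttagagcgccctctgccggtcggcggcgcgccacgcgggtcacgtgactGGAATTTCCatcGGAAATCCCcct
Nfkbie: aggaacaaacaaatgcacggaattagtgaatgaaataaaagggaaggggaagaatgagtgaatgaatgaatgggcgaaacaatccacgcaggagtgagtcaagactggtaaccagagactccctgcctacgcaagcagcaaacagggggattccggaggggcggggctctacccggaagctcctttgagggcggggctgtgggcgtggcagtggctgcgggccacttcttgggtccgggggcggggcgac
The Nfkbia window and the Tnfaip3 window shown thus hold 2 matches each, those of Tnfaip3 separated by 3 bases next to that start. Window 2 of Tnfaip3, at another annotated start (chr10:19011914-19012213), has 0 matches and is not shown. Rel has 1 match, at -91 to -83. Nfkb2 has 3 annotated windows, each with a match, of which those in windows 2 and 3 are the same stretch. A match describes the sequence and is not a measurement of binding.

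The levels are TPM, in which the authors divided reads by gene length and scaled each library to the same sum, so that levels can be compared between genes, whereas the number of reads behind a value is unknown. Pax5, examined first as a check of the genotype, was present in wild-type libraries with 342, 386 and 391 TPM. The Pax5-/- libraries held 43.0 and 39.1 TPM, while 394, 376 and 397 TPM were found in Meox2-cre libraries. It was thus 89.0% lower in Pax5-/- cells (log2 fold change -3.17, adjusted p = 3.1e-06 by limma), with RNA still counted over the mutant gene. Among pro-B cell marker genes, the B cell receptor component Cd79a was at 3670 to 5449 TPM in wild-type libraries and at 542 and 608 TPM in Pax5-/- libraries. The surrogate light chain gene Igll1 was at 2671 to 2974 TPM compared with 642 and 572 TPM, and Vpreb1 at 1914 to 2147 TPM compared with 351 and 322 TPM. Dntt, the template-independent polymerase gene, overlapped between the genotypes, with 760 to 2133 TPM and 1712 and 1382 TPM. Ly6d, part of the progenitor gate, was at 2258 and 3033 TPM in Pax5-/- libraries compared with 190 to 270 TPM in wild-type libraries. Cd79b was at 1373 to 1676 TPM in wild-type and at 952 and 1054 TPM in Pax5-/- libraries. Rag1 was at 267 to 363 TPM compared with 236 and 211 TPM, and Ebf1 at 378 to 497 TPM compared with 175 and 147 TPM. The cells labelled Pax5-/- pro-B thus had less RNA of these markers other than Dntt than wild-type cells, to an extent that differed between markers, and still held RNA of each. Across genes, Pearson's r of log2 values was 0.991 to 0.993 between wild-type libraries, 0.996 between the Pax5-/- libraries and 0.968 to 0.974 between genotypes.

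The comparison of wild-type and Pax5-/- cells asks how the NF-kappaB genes are expressed when Pax5 is missing. None of the 5 subunit genes passed the test, while the inhibitor Nfkbia was 1.33-fold higher and the inhibitor Nfkbie and the feedback gene Tnfaip3 were 1.5-fold and 1.83-fold lower in Pax5-/- cells. Of the 10 genes, 2 were called lower and 1 was called higher at an adjusted p below 0.05 (limma on log2(TPM + 0.5), Benjamini-Hochberg adjustment over 12066 genes), and 7 were not called. All 10 passed the filter of a mean above 1 TPM in at least 1 genotype. Among all genes tested, 21.5% were called lower and 15.6% higher, so the share of members called, 20% lower and 10% higher, was not above the background. The libraries of the genotypes did not overlap for 3 members that were lower (37.4% of all genes) and for 1 member that was higher (26.1% of all genes). No member passed a change of more than 3-fold together with a mean above 5 TPM, a call that 3.15% of genes met downwards and 2.71% upwards, and none passed it at 2-fold. At an unadjusted p below 0.05 by limma, 3 members were lower and 1 was higher, compared with 47.3% of all genes in either direction. The median log2 fold change was -0.10 over the members and -0.12 over all genes tested. Rescaling the libraries by median ratios moved the median of all genes by 0.11 and the share of higher genes among all calls from 42.1% to 51.8%. The changes of Relb, Nfkbia, Nfkbie and Tnfaip3 are therefore also given below relative to the median of all genes, whereas those of pathway genes are not. Nothing in the labels says that the libraries of a group came from separate animals, and the p-values then measure only the spread between these samples. A permutation of 3 against 2 libraries cannot give an exact two-sided p below 0.1.

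**Figure D1:**
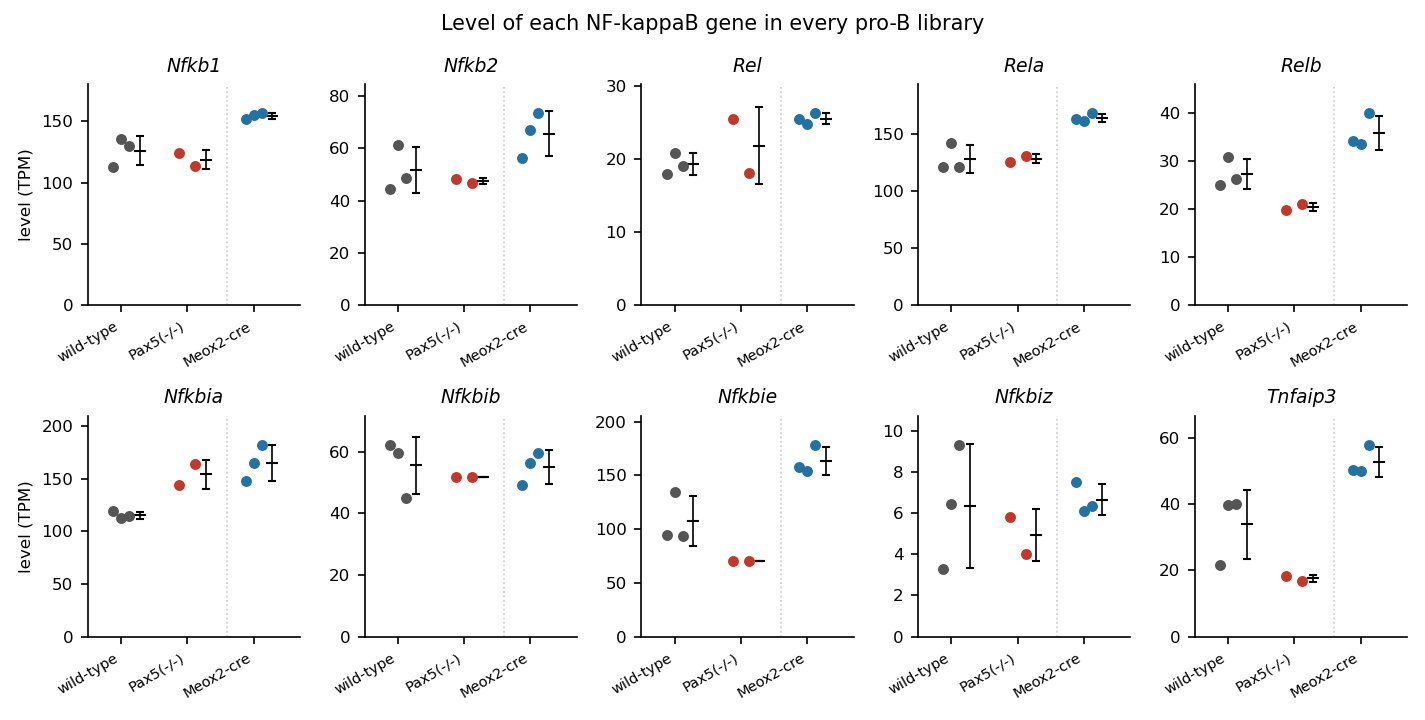
Level of each of the 10 NF-kappaB genes in TPM (y axis, from 0) in the 3 wild-type, 2 Pax5(-/-) and 3 Meox2-cre libraries (x axis). Points are libraries, the bar beside them gives the mean and SD, and the dotted line separates the mm10 tables of the Meox2-cre libraries, which were processed otherwise. The Pax5(-/-) points lie above all wild-type points for Nfkbia and below them for Relb, Nfkbie and Tnfaip3.

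Rela, the subunit of the classical p50 dimer that activates transcription, was measured at 121, 142 and 121 TPM in the wild-type libraries and at 125 and 131 TPM in both Pax5-/- libraries. The genotypes overlapped, and the log2 fold change was 0.01 with a 95% interval of -0.25 to 0.26. Nfkb1, which encodes p105 and p50, was at 113, 135 and 130 TPM in wild-type and at 124 and 113 TPM in Pax5-/- libraries, with a log2 difference of -0.08 (95% interval -0.35 to 0.18). These 2 genes were the most abundant subunit genes and ranked at the 86.4th and 86.2nd percentile of the 11620 genes above 1 TPM in wild-type cells. Rel (c-Rel), the subunit known for its role in mature lymphocytes, was much lower, at 17.9, 20.9 and 19.1 TPM in wild-type and 25.6 and 18.1 TPM in Pax5-/- libraries. The 2 Pax5-/- libraries disagreed about Rel, one lying above all wild-type libraries and the other among them, and the log2 fold change of Rel was 0.15 (95% interval -0.27 to 0.58), or -0.09 without Pax5-/- library 1.

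The pair of subunits that acts in the non-canonical arm is Nfkb2, the precursor of p52, and its partner Relb. Nfkb2 was measured at 44.5, 61.5 and 48.8 TPM in the wild-type and at 48.2 and 46.8 TPM in both Pax5-/- libraries, which overlapped. Relb was at 25.0, 31.0 and 26.3 TPM in wild-type and at 19.8 and 21.0 TPM in Pax5-/- libraries, so that every Pax5-/- library lay below every wild-type library. The log2 difference of Relb was -0.41 with a standard error of 0.15, and -0.29 relative to the median of all genes, and it missed the threshold (limma, adjusted p = 0.0596). Without wild-type library 1, which had the lowest Relb of the wild-type group, the adjusted p of Relb was 0.0396 by limma, the lowest of 0.0396 to 0.287 over its 15 alternatives. The exact permutation test of Relb gave p = 0.1, the smallest that this design allows.

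Nfkbia, the inhibitor that NF-kappaB induces fastest and that is degraded and resynthesized with each signal, was measured at 119, 112 and 115 TPM in the wild-type libraries and at 144 and 164 TPM in both Pax5-/- libraries. It was the only member called higher, with a log2 fold change of 0.41 and a standard error of 0.10 (limma, adjusted p = 0.0163), or 0.53 relative to the median of all genes. The wild-type libraries lay within 6.61 TPM of each other, less than the gap of 25.2 TPM to the nearest Pax5-/- library. The call was lost without Pax5-/- library 1 (adjusted p = 0.0542 by limma) or Pax5-/- library 2 (0.157), each of which leaves a lone Pax5-/- sample assumed to vary like the wild-type group, and with moderated variances without an intensity trend (0.0506). Over its 15 alternatives the adjusted p of Nfkbia by limma ranged from 0.0087 to 0.157.

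Nfkbie, an inhibitor that is prominent in B cells and preferentially binds Rel and Rela dimers, was at 95.0, 135 and 93.5 TPM in the wild-type and at 70.6 and 70.6 TPM in both Pax5-/- libraries. Both Pax5-/- libraries lay below the wild-type group, in which library 2 stood above the other two. The log2 difference was -0.59 with a standard error of 0.17 (limma, adjusted p = 0.0296), or -0.47 relative to the median of all genes. The call was lost without Pax5-/- library 1 (adjusted p = 0.171 by limma) or library 2 (0.191), and after rescaling by median ratios (log2 difference -0.47, adjusted p = 0.0775), quantile normalization (0.0590) or removal of ribosomal protein genes (0.0503). It was also lost without the filter on low values (0.0615) and without the intensity trend (0.0687), within a range of 0.0235 to 0.191 over all 15. Nfkbib, the inhibitor of slower turnover, was at 62.3, 59.5 and 45.0 TPM in the wild-type and at 51.9 and 51.7 TPM in both Pax5-/- libraries, which lay inside the wild-type range. Its log2 difference was -0.09 (95% interval -0.45 to 0.28). The exact permutation p was 0.1 for Nfkbia and Nfkbie, again the smallest possible.

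Tnfaip3, which encodes A20 and is lost in many mature B cell lymphomas, was at 21.7, 39.8 and 40.0 TPM in the wild-type and at 18.3 and 16.9 TPM in both Pax5-/- libraries. Every Pax5-/- library lay below every wild-type library, but wild-type library 1 was closer to the Pax5-/- libraries than to its own group. The log2 difference of Tnfaip3 was -0.87 with a standard error of 0.27 (limma, adjusted p = 0.0371), or -0.75 relative to the median of all genes, and the exact permutation p was 0.2. Wild-type library 1 also held the least myeloid RNA of its group, with a summed level of 8 myeloid markers of 45.9 TPM compared with 252 and 192 TPM in wild-type libraries 2 and 3 and 55.4 and 83.7 TPM in both Pax5-/- libraries, and the least Dntt (760 TPM compared with 2133 and 1921 TPM). The part of these differences in the level of Tnfaip3 was not tested, and fewer cells of a type cannot be told apart from less RNA per cell in bulk samples. Without wild-type library 1 the log2 difference was -1.16 (adjusted p = 0.0012 by limma), whereas the call was lost without wild-type library 2 (-0.73, adjusted p = 0.111), wild-type library 3 (-0.72, 0.0909), Pax5-/- library 1 (-0.93, 0.176) or Pax5-/- library 2 (-0.81, 0.246). It was also lost without the filter on low values (0.0803), without the intensity trend (0.0706) and without ribosomal protein genes (0.0501), within a range of 0.0012 to 0.246 over all 15.

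Nfkbiz, the nuclear inhibitor, was the lowest member, at 3.26, 6.44 and 9.31 TPM in the wild-type and 5.81 and 4.02 TPM in both Pax5-/- libraries. Both Pax5-/- libraries lay inside the wild-type range, and the 95% interval of the log2 difference, -1.17 to 0.67, includes a change of more than 2-fold downwards. Nfkbiz in wild-type cells had the widest spread of the members relative to its mean, with an SD of 3.02 TPM around a mean of 6.34 TPM.

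**Figure D2:**
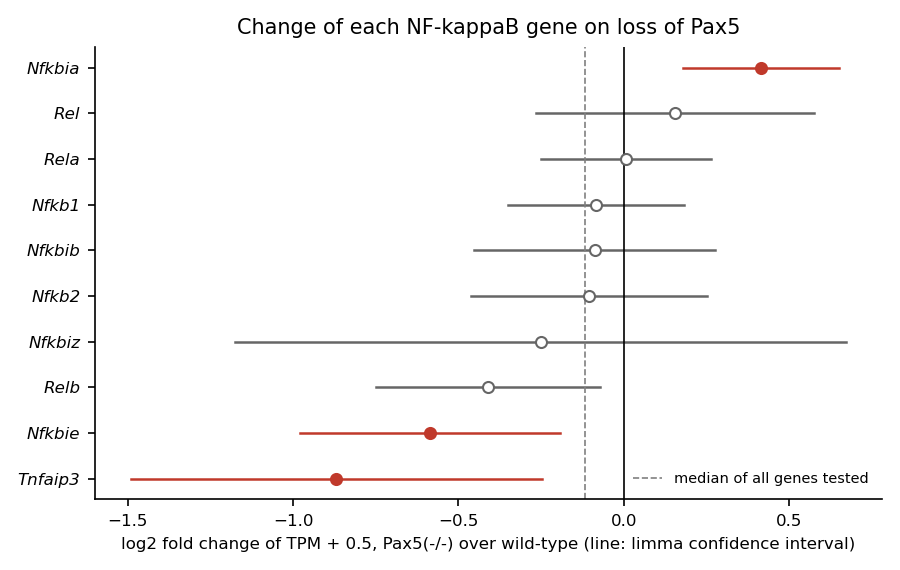
Log2 fold change of each gene, Pax5(-/-) over wild-type, on the log2(TPM + 0.5) scale (x axis) with its 95% interval from limma. Filled red points passed an adjusted p below 0.05 and the dashed line is the median of all genes tested. Nfkbia lies at 0.41, Nfkbie at -0.59 and Tnfaip3 at -0.87, and the interval of Relb ends at -0.07 although its adjusted p missed the threshold.

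Since the subunits compete for the same partners, their levels were also read against each other within each library, which does not depend on the scaling of the library. Rela made up 35.0 to 39.6% and Nfkb1 33.8 to 37.7% of the summed TPM of the 5 subunit genes in the 8 libraries, and Nfkb2 followed with 13.1 to 15.8%. Relb accounted for 7.61 to 7.94% in the wild-type libraries, 5.77 and 6.38% in the Pax5-/- libraries and 7.63 to 8.62% in the Meox2-cre libraries. Rel accounted for 5.35 to 5.58% in wild-type and for 7.46 and 5.49% in Pax5-/- libraries. Relb was the only subunit whose share lay outside the wild-type range in the same direction in both Pax5-/- libraries.

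The inhibitor genes shifted more. Nfkbia made up 43.0, 36.6 and 45.3% of the summed TPM of the 3 classical inhibitors in the wild-type libraries and 54.0 and 57.3% in the Pax5-/- libraries, which lay above all wild-type libraries. Nfkbie made up 34.4, 44.0 and 36.9% in the wild-type and 26.5 and 24.7% in the Pax5-/- libraries, which lay below them. In the Meox2-cre libraries Nfkbia held 41.7 to 43.9% and Nfkbie 41.1 to 44.5%. The ratio of summed inhibitor to summed subunit TPM was 0.859, 0.785 and 0.734 in the wild-type and 0.777 and 0.868 in the Pax5-/- libraries, which overlapped. Without Nfkbia, the mean ratio was 0.463 in wild-type, 0.364 in Pax5-/- and 0.491 in Meox2-cre libraries. The sum of the inhibitors relative to the subunits thus overlapped between the genotypes, with more of it from Nfkbia and less from Nfkbie in the Pax5-/- libraries. These shares and ratios are given without a test.

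**Figure D3:**
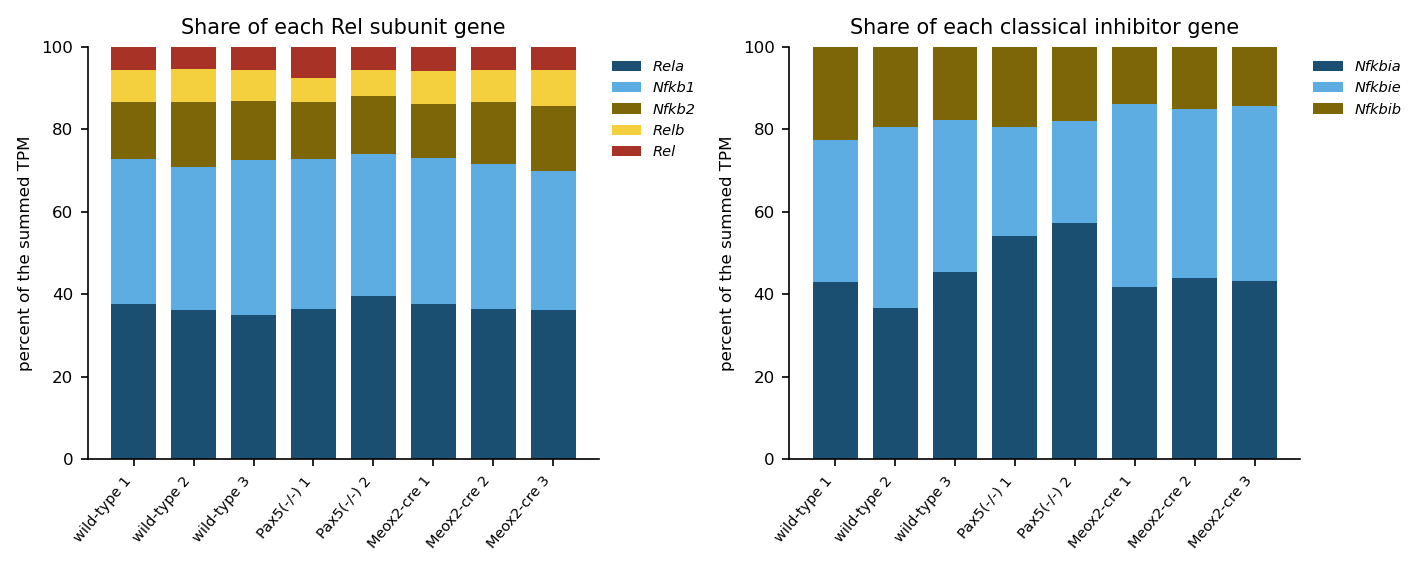
Share of each subunit gene in the summed TPM of the 5 subunit genes (left) and of each classical inhibitor gene in the summed TPM of the 3 inhibitor genes (right), in percent, for each library. The Nfkbia share is 54.0 and 57.3% in the Pax5(-/-) libraries and between 36.6 and 45.3% in the 6 others.

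In the order of mean levels in wild-type cells, Rela (128 ± 12.1 TPM), Nfkb1 (126 ± 11.7 TPM), Nfkbia (115 ± 3.33 TPM) and Nfkbie (108 ± 23.4 TPM; SD, n = 3 for each) came first, and neighbours among these 4 overlapped in their ranges. Nfkbib (55.6 ± 9.29 TPM) and Nfkb2 (51.6 ± 8.82 TPM) followed and did not differ beyond their spread, as did Tnfaip3 (33.8 ± 10.5 TPM) and Relb (27.4 ± 3.15 TPM), while Rel (19.3 ± 1.49 TPM) lay below Relb and above Nfkbiz in every library. In Pax5-/- cells Nfkbia (154 ± 14.1 TPM, SD, n = 2) came first and Nfkbie (70.6 TPM) stood below Rela and Nfkb1 in both libraries, and Tnfaip3 (17.6 ± 1.01 TPM) stood below Relb (20.4 ± 0.89 TPM).

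The Meox2-cre pro-B cells were controls of the same gate as the wild-type cells, but their reads were aligned to mm10 with another aligner and annotation, so their levels are set beside the others without a test. Nfkbia (165 ± 17.3 TPM), Rela (164 ± 3.65 TPM), Nfkbie (164 ± 13.1 TPM) and Nfkb1 (155 ± 2.30 TPM, SD, n = 3 for each) came first. Neighbours in this order overlapped in their ranges, whereas Rela lay above Nfkb1 in every Meox2-cre library. Tnfaip3 was measured at 50.3, 50.0 and 57.9 TPM and Relb at 34.2, 33.6 and 40.0 TPM. For 7 of the 10 genes all Meox2-cre libraries lay above all wild-type libraries, and for Nfkb2, Nfkbib and Nfkbiz they overlapped. The same count was not made over all genes, so it cannot be read as a trait of these 10 genes. The mm9 entries of Nfkb2 and Nfkbib are marked as overlapping another gene, whereas their mm10 entries are not. The summed level of the 8 myeloid markers was 440 to 1217 TPM in the Meox2-cre and 45.9 to 252 TPM in the wild-type libraries, and its part in these levels was not tested. Nfkbia, at 147, 165 and 182 TPM in the Meox2-cre libraries, overlapped the 144 and 164 TPM of the Pax5-/- libraries, whereas Relb, Nfkbie and Tnfaip3 were below every other library in the Pax5-/- cells.

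The other genes of the pathway were examined in 7 lists of 81 genes, of which 76 passed the filter on low values. Of these, 19 (25.0%) were called lower and 12 (15.8%) higher in Pax5-/- cells, compared with 21.5% and 15.6% of all genes, so the pathway lists as a whole lay close to the background. The excess of lower over higher genes depended on the scaling, with 15 lower and 16 higher when median ratios set the scale, 16 and 15 for quantile-normalized values and 16 and 16 without ribosomal protein genes. The calls over all genes shifted likewise, from 2596 lower and 1885 higher to 2249 and 2413, 2360 and 2460, and 2195 and 2232. The median log2 fold change of the pathway genes was -0.29, compared with -0.12 over all genes. With Pax5-/- library 1 or 2 left out, which leaves a lone Pax5-/- sample, fewer pathway genes and fewer of all genes were called in either direction.

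The IKK complex itself, which phosphorylates the inhibitors, was not called. Ikbkb (IKKbeta) was at 51.7 and 54.5 TPM on average in wild-type and Pax5-/- cells (log2 fold change 0.08, 95% interval -0.20 to 0.36). The scaffold gene Ikbkg (NEMO) was at 16.0 and 17.9 TPM, and Chuk (IKKalpha) at 15.3 and 10.3 TPM with a log2 difference of -0.53 (adjusted p = 0.103, limma). Of the 7 IKK and IKK-related genes only Ikbke, an IKK-related kinase of the interferon response, was called, with a rise from 9.37 to 17.1 TPM (log2 fold change 0.88, adjusted p = 0.0318, limma). The median of the list was -0.06. At an unadjusted p below 0.05 by limma, 2 genes were lower and 1 was higher, compared with 47.3% of all genes in either direction. Of the list 0% were called lower and 14.3% higher, compared with 21.5% and 15.6% of all genes.

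Upstream of IKK, 7 of 17 canonical adaptor and kinase genes (41.2%) were called lower and 2 (11.8%) higher. Among all genes tested 21.5% were called lower and 15.6% higher. The median log2 fold change of the list was -0.35. Bcl10, part of the complex that links antigen receptors to IKK, fell from 56.2, 60.0 and 63.5 TPM in wild-type to 34.8 and 35.1 TPM in Pax5-/- libraries (log2 difference -0.77, adjusted p = 0.0018, limma). Prkcq, a protein kinase C gene best known from T cells, fell from 6.69 to 0.88 TPM on average. Irak1, a kinase of Toll-like and interleukin-1 receptor signaling, rose from 38.6, 43.8 and 47.6 TPM to 96.6 and 92.0 TPM (log2 fold change 1.12, adjusted p = 5.2e-04, limma), although its entry is marked in the tables as overlapping another gene.

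In the non-canonical arm, 2 of 8 tested genes (25%) were called lower and 3 (37.5%) higher, with a median log2 fold change of -0.01. Among all genes tested 21.5% were called lower and 15.6% higher. The receptor genes Cd40 and Ltbr were called in opposite directions. Cd40, the costimulatory receptor of B cells, was at 4.61, 4.45 and 4.87 TPM in wild-type and at 0.17 and 0.18 TPM in Pax5-/- libraries (log2 difference -2.93, adjusted p = 1.2e-04, limma). Ltbr, the lymphotoxin beta receptor of stromal and myeloid cells, was at 0.54, 2.26 and 1.11 TPM in wild-type and at 16.9 and 14.9 TPM in Pax5-/- libraries (log2 fold change 3.30, adjusted p = 7.3e-04, limma). Map3k14, which encodes NIK, rose from 16.9, 26.9 and 23.6 TPM to 58.0 and 56.9 TPM (log2 fold change 1.36, adjusted p = 0.0018, limma). Traf3, which holds NIK at a low level by targeting it for degradation, was at 16.2 and 19.9 TPM on average (log2 fold change 0.28, adjusted p = 0.226, limma). Beside these values, the NIK substrate Nfkb2 was not called and Relb was lower without passing the threshold. In the Meox2-cre libraries, Ltbr was at 2.60 to 3.29 TPM and Map3k14 at 19.2 to 26.4 TPM.

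Of 7 atypical IkappaB and nuclear regulator genes, 3 (42.9%) were called lower and 2 (28.6%) higher, with a median of -0.39. The shares over all genes tested, for this and the next 2 lists, were 21.5% lower and 15.6% higher. Nfkbid and Bcl3, atypical inhibitors of the same ankyrin family as Nfkbiz, both fell. Nfkbid was at 14.9, 18.9 and 23.3 TPM in wild-type and 8.40 and 9.05 TPM in Pax5-/- libraries (log2 difference -1.06, adjusted p = 0.0068, limma), and Bcl3 fell from 9.55 to 4.60 TPM on average (-0.95, adjusted p = 0.0209). Commd1, which promotes the turnover of nuclear Rela, fell from 168 to 123 TPM (-0.44, adjusted p = 0.0109, limma). The ubiquitin ligase list had 2 of 10 genes (20%) called lower and 0 higher by limma. Its median was -0.15, and 4 genes were lower and 1 was higher at an unadjusted p below 0.05 by limma. Over all genes tested, 47.3% passed that unadjusted threshold in either direction. Those called were Sharpin, a subunit of the linear ubiquitin ligase (116 to 71.0 TPM), and Ube2n, which makes K63-linked chains (60.3 to 44.7 TPM). Of 9 tested deubiquitinase and A20 partner genes, 2 (22.2%) were called lower and 0 higher by limma. Their median was -0.16, and 2 genes were lower and 1 was higher at an unadjusted p below 0.05 by limma, beside the same 47.3%. Those called were Otud7b, a deubiquitinase of the non-canonical arm (24.9 to 17.6 TPM), and Zc3h12a, an RNase of inflammatory transcripts (23.5 to 12.9 TPM). The A20 partner Tnip1 (58.8 and 68.9 TPM) and the deubiquitinase Cyld (12.9 and 12.1 TPM) were not called.

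Of 18 tested genes that NF-kappaB frequently induces, 3 (16.7%) were called lower and 4 (22.2%) higher, compared with 21.5% and 15.6% of all genes. The median log2 fold change was 0.22, and the called genes of this list had no common direction. Bcl2l1, which encodes the survival protein Bcl-xL, fell from 147, 152 and 126 TPM to 26.0 and 23.9 TPM (log2 difference -2.48, adjusted p = 1.4e-05, limma). Gadd45b, a stress response gene, fell from 52.2, 44.5 and 36.0 TPM to 11.9 and 14.8 TPM (-1.68, adjusted p = 5.3e-04, limma). Ebi3, a subunit of the cytokines IL-27 and IL-35, rose from 29.2, 21.1 and 13.7 TPM to 104 and 114 TPM (log2 fold change 2.39, adjusted p = 6.5e-04, limma), and its entry is marked as overlapping another gene. These 3 target genes had larger log2 differences than any of the 10 subunit and inhibitor genes, but they were picked for the smallest adjusted p. Of the 18 tested target genes, 11 were not called.

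**Figure D4:**
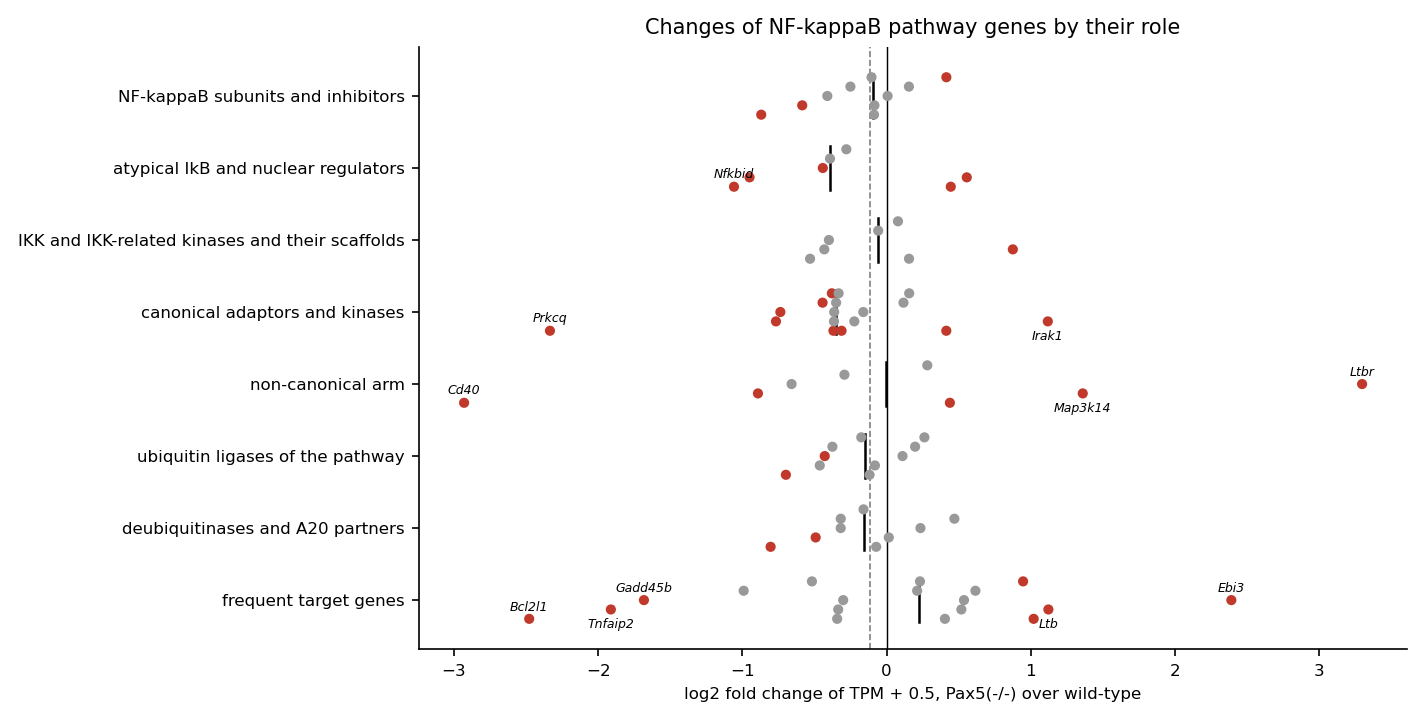
Log2 fold change, Pax5(-/-) over wild-type (x axis), of the subunit and inhibitor genes and of the 7 pathway lists (rows), with 1 point per tested gene. Red points passed an adjusted p below 0.05 (limma), black bars are list medians and the dashed line is the median of all genes. The members lie between -0.87 and 0.41, whereas single receptors and target genes reach -2.93 and 3.30.

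Markers of other cells were examined by list. The 8 myeloid markers, summed above, included Lyz2 at 16.2 to 57.5 TPM in wild-type and 13.3 and 14.3 TPM in Pax5-/- libraries, S100a9 at 4.35 to 84.1 compared with 0.28 and 10.3 TPM, and Mpo at 11.1 to 34.5 compared with 37.8 and 42.1 TPM, so that Mpo was higher in both Pax5-/- libraries. Cd14 was at 0 in 4 of these 5 libraries. The 6 T cell markers summed to 8.77 to 13.2 TPM in wild-type and 7.26 to 9.77 TPM in Pax5-/- libraries, with Cd3e at 0 in both Pax5-/- libraries. Most of the wild-type sum was Cd5, at 7.08 to 12.2 TPM in wild-type and 2.93 and 3.01 TPM in Pax5-/- libraries. Within that list Cd4 went the other way, at 0.37 to 0.71 TPM in wild-type and 3.97 and 5.88 TPM in Pax5-/- libraries. The 5 NK and innate lymphoid markers summed to 2.66 to 10.4 and 2.79 to 3.65 TPM, with Ncr1 at 0 in both Pax5-/- libraries. The 5 erythroid markers, of which Hbb-b1 was at 0 in all libraries, summed to 22.3 to 68.5 TPM in wild-type and 5.27 to 11.6 TPM in Pax5-/- libraries. The 5 mature B and plasma cell markers summed to 28.8 to 37.5 and 7.33 to 8.68 TPM. Most of this sum was Sdc1, at 23.8 to 30.1 TPM in wild-type and 7.61 and 6.28 TPM in Pax5-/- libraries. Prdm1 overlapped, at 0.44 to 0.64 and 0.52 and 0.59 TPM. The 5 plasmacytoid dendritic cell markers, which include Spib and Tcf4 that pro-B cells also express, summed to 673 to 758 and 314 to 386 TPM, and Siglech was at 1.79 and 9.06 TPM in both Pax5-/- libraries compared with 0.11 to 1.12 TPM in wild-type. The part of these cells in the levels of Nfkbia, Nfkbie and Tnfaip3 was not tested.

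**Figure D5:**
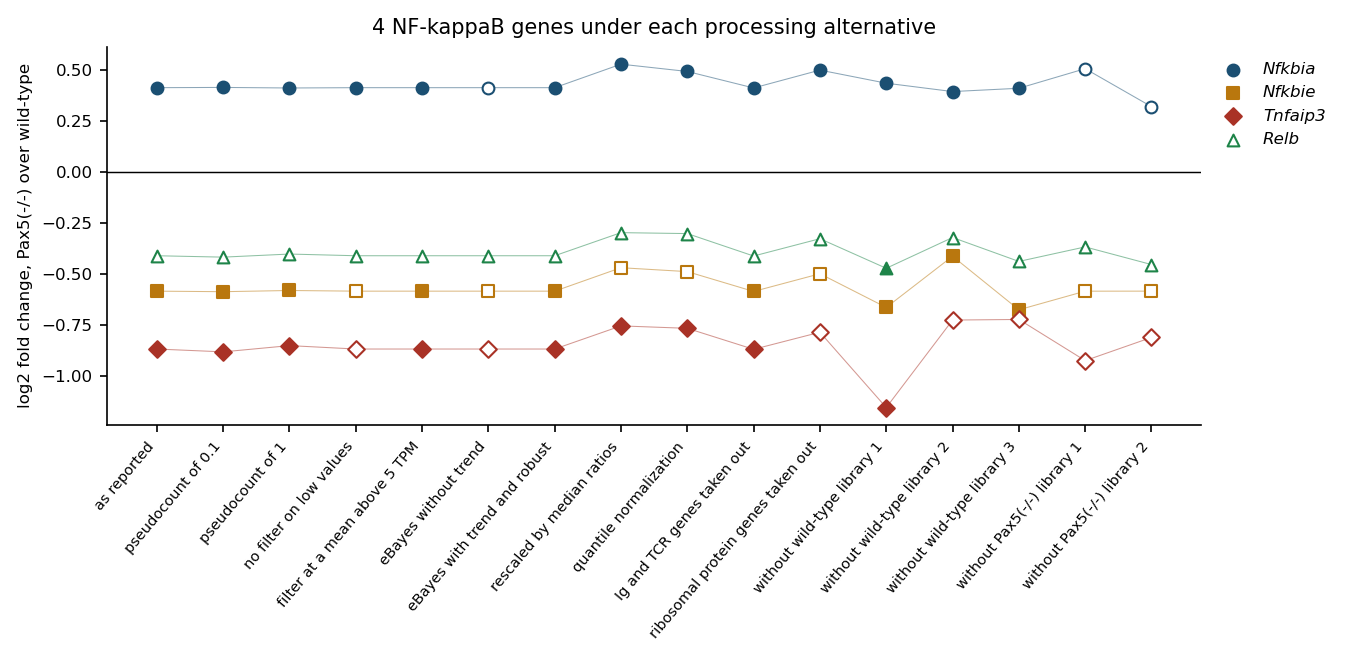
Log2 fold change (y axis) of Nfkbia, Nfkbie, Tnfaip3 and Relb as reported and under each of 15 processing alternatives (x axis). Filled symbols have an adjusted p below 0.05 and open symbols do not. Nfkbia stayed above 0 and the other 3 genes below 0 under every alternative shown, while their adjusted p crossed the threshold under several.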

How the data were processed

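Per the labels and the study's methods, poly(A) RNA was sequenced and ribosomal RNA reads were removed. The authors aligned the wild-type and Pax5-/- reads to mm9 with TopHat 1.4.1a and the Meox2-cre reads to mm10 with STAR 2.4.2a in paired-end mode, counted them per gene with featureCounts 1.5.0 on refGene annotations and deposited TPM. The tables hold no counts, so the depth and the counting error are unknown. Entries above 5 TPM numbered 9133 to 9637 per library.

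The 2 genotypes were fitted with lmFit and eBayes (trend) of limma 3.58.1 under R 4.3.3, on log2(TPM + 0.5) and with no covariate. The fit held 12066 genes, those whose mean exceeded 1 TPM in either genotype, and a call needed an adjusted p below 0.05 (Benjamini-Hochberg). Fold changes on this scale understate those of low genes. The script was tested on simulated data. The members and gene lists were chosen with earlier results of these data known. Named genes were all members, the up to 3 called genes of smallest adjusted p in each pathway list, Ikbkb, Chuk, Ikbkg, Map3k14, Traf3, Tnip1, Cyld and Pax5. Cell type marker lists were fixed likewise, and 1 pro-B marker is not reported here. Alternatives were other pseudocounts, filters, moderation, scaling, thresholds, removal of immunoglobulin and T cell receptor genes (518 entries) or ribosomal protein genes, and leaving out each library. Samples of ChIP-seq were not used here, nor were protein sequences. Coordinates of genes are GENCODE mm9 and promoter windows are RefSeq GRCm38.p6. Tables and figures were made with Python 3.11.15, pandas 2.3.3 and matplotlib 3.10.9.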

Additional observations from a re-analysis of the deposited data

How the results depend on the processing

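Each member was refitted under 15 alternatives. Nfkbia, Nfkbie, Tnfaip3 and Relb kept their direction under all of them, whereas the members called lower (2 as reported) numbered 0 without the filter on low values, 0 without the intensity trend, 0 without ribosomal protein genes, 1 after rescaling by median ratios, 1 after quantile normalization, 0 at an adjusted p below 0.01 and 0 to 3 when 1 library was left out. The member called higher (1 as reported) numbered 0 without the trend, 0 at an adjusted p below 0.01 and 0 to 1 when 1 library was left out. No member passed the 3-fold call under any alternative. Pathway genes called lower ranged from 6 to 27 and those called higher from 4 to 11 when 1 library was left out. Over all genes, 2596 lower and 1885 higher calls became 990 and 799 without Pax5-/- library 1 and 825 and 704 without Pax5-/- library 2. Without a filter 17368 genes were tested, and without a Pax5-/- library 1 sample was left in that group; the cause of the other changes was not tested. The remaining 6 members were not called under any alternative, but their signs turned under some. After rescaling by median ratios the log2 differences were 0.031 for Nfkb1, 0.0098 for Nfkb2 and 0.027 for Nfkbib, after quantile normalization 0.0073 for Nfkb1 and 0.0080 for Nfkbib, and without ribosomal protein genes 0.0014 for Nfkb1. With 1 library left out, log2 differences ranged from -0.20 to 0.027 for Nfkb2, from -0.088 to 0.40 for Rel, from -0.032 to 0.083 for Rela, from -0.23 to 0.0010 for Nfkbib and from -0.63 to 0.062 for Nfkbiz. No paired analysis was possible because no label numbers the replicates, and the library numbers used here only follow the order of the samples. Depth in reads is unknown, so no counting error can be given.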
